A study of Homo sapiens with 2 samples.

Results

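The zinc finger genes of human chromosome 19 were measured in BE(2)C, an established line of neuroblastoma cells that carries many copies of the oncogene MYCN. The members were selected by symbol and place: a symbol of ZNF followed by digits and at most 1 letter, and a location on chromosome 19. These criteria use no measured value, but the group was chosen from the series with its earlier results known, so the overall shift of the group is a description and not an independent finding. The rule gave 225 protein-coding genes, read by 229 probe sets, of 14812 named genes in the table. It left out 1 row of a pseudogene. The tested culture received small interfering RNA (siRNA) against MYCN and the reference culture received non-targeting control siRNA, both delivered with a lipid reagent, with RNA taken 36 hours later. There was 1 Affymetrix Human Gene 2.0 ST array per treatment, so no value below has a replicate and no p-value is given. The siRNAs came from different suppliers, and a single MYCN siRNA was used, so effects of that siRNA on other transcripts cannot be told apart from those of MYCN. MYCN was not analysed here.

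Most ZNF symbols on chromosome 19 stand for proteins with arrays of C2H2 zinc fingers, short loops held by a zinc ion that read DNA bases. Many carry a KRAB domain, which recruits the corepressor TRIM28 (KAP1) and, through it, the histone H3 lysine 9 methyltransferase SETDB1 and heterochromatin proteins. These KRAB zinc finger proteins are best known for silencing transposable elements. Their genes arose by repeated duplication and lie in clusters of neighbours, so probes of related genes may share signal. MYC and MYCN bind DNA with their partner MAX, preferentially at the E-box CACGTG.

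The control array's label calls it a reanalysis without saying of what, and whether both arrays were normalized together is not stated, so a difference of processing between them cannot be told apart from the treatment. Values are log2 on the authors' RMA scale, and each difference is MYCN siRNA minus control siRNA, so a positive one means higher after MYCN siRNA. Over 46255 rows the median was 4.55 in the MYCN siRNA array and 4.60 in the control siRNA array. A value near or below these medians is not shown to be above background. In 596 genes with more than 1 probe set that did not hold the same values, the scatter between 2 probe sets of a gene corresponded to an SD of 0.32 for one of them. No other measure of error exists for single genes, and this one leaves out the spread between cultures. The 2 arrays held exactly equal values in 1859 rows (4.02%), among them ZNF331, ZNF556 and ZNF793. All 9 listed noradrenergic neuroblastoma markers in the table were above both medians, from TH, at 6.53 in the MYCN siRNA array and 6.47 in the control siRNA array, upward, and their log2 values summed to 85.0 in the MYCN siRNA array and 83.1 in the control siRNA array. Most of that gap was DBH, the enzyme that makes noradrenaline, at 10.8 in the MYCN siRNA array and 9.32 in the control siRNA array (1.45), while ISL1, a neuronal transcription factor, had a difference of −0.43. The sums were 28.8 and 27.8 for 5 mesenchymal or Schwann markers, 13.3 and 11.9 for 2 haematopoietic markers, and 9.49 and 10.00 for 2 epithelial markers, in the same order of arrays. Within these, S100B, a glial calcium-binding protein, had a difference of 1.02 and PRRX1, a mesenchymal transcription factor, one of −0.51. CD68, a lysosomal protein abundant in macrophages, was at 9.00 in the MYCN siRNA array and 7.27 in the control siRNA array, while CSF1R, the receptor of a macrophage growth factor, was at 4.26 and 4.64. The part of these marker levels in the differences was not tested.

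RefSeq promoter windows (GRCh38.p14, 250 bases before to 50 bases after a start site) were listed for 198 of the 225 genes. The windows of 11 of them held CACGTG. Those of the 6 genes among them with the lowest difference are shown first, followed by ZNF536 and ZNF460, the only 2 of the 11 with a difference above 0. Each is read 5′ to 3′ on the gene's strand, with the E-box in capitals.
ZNF296 (chr19:45076476-45076535, minus strand): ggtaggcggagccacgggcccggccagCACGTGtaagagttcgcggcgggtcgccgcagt
ZNF587B (chr19:57830222-57830281, plus strand): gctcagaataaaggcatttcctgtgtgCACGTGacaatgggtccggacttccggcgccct
ZNF565 (chr19:36246071-36246130, minus strand): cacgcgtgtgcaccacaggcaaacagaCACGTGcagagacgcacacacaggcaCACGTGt
ZNF814 (chr19:57889050-57889109, minus strand): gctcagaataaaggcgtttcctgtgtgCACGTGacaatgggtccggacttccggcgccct
ZNF324 (chr19:58466963-58467022, plus strand): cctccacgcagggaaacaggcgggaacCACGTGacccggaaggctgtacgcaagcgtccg
ZNF507 (chr19:32345582-32345641, plus strand): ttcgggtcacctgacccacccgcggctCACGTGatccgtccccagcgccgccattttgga
ZNF536 (chr19:30372307-30372366, plus strand): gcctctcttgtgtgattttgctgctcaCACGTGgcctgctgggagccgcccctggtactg
ZNF460 (chr19:57279860-57279919, plus strand): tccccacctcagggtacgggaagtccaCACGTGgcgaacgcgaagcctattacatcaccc

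The stretches of ZNF587B and ZNF814, genes of the same cluster, differ at 1 of 60 bases. The stretch of ZNF565 shown holds 2 copies, and its listed windows hold further ones.

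The whole windows of the 3 genes with the highest difference among the 198 are shown next. None holds CACGTG. Capitals mark CCGGAA, the core of the site read by ETS factors, which ZNF284 and ZNF585A hold and ZNF699 does not. It was not marked in the E-box stretches above. Read on both strands, windows of ZNF587B, ZNF814, ZNF324, ZNF536 and ZNF460 also hold it, so it does not set the 3 highest genes apart.
ZNF699 (chr19:9309789-9310088, minus strand): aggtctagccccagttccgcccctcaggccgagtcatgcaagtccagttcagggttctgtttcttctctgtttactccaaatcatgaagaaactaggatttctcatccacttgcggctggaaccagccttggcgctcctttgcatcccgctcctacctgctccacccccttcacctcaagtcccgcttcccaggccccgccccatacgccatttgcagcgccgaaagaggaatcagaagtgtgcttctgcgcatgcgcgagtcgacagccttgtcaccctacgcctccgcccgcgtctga
ZNF284 (chr19:44071909-44072208, plus strand): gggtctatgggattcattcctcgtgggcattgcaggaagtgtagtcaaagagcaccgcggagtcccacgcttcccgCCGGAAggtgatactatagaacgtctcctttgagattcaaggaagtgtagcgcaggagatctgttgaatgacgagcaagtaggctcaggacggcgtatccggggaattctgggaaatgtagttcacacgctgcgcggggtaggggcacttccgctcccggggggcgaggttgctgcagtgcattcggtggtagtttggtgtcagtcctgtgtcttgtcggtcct
ZNF585A (chr19:37172646-37172945, minus strand): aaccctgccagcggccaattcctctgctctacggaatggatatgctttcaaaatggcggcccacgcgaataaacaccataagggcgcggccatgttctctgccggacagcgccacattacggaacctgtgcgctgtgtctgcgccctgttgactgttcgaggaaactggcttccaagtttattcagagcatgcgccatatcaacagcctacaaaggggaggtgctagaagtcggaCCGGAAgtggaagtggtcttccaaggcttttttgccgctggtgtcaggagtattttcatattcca

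As a group the chromosome 19 zinc finger genes were higher in the MYCN siRNA array. Of the 225, 163 were above 0 (72.4%, against 48.3% of all genes), 59 below and 3 at exactly 0. The median difference was 0.30 on the log2 scale, against 0.00 over all genes, and the middle 50% ran from −0.01 to 0.59. At least 1.5-fold higher were 57 members (25.3%, against 7.04% of all genes), and 3 were at least 1.5-fold lower (1.33%, against 4.95% of all genes). At least 2-fold higher were 13 (5.78%, against 1.68% of all genes) and none was 2-fold lower (0.932% of all genes). Of the 225 differences, 100 were smaller in size than the probe set SD of 0.32. All other protein-coding genes were more often that near 0: 16% lay at or below −0.33 and 82% at or below 0.33.

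**Figure D1:**
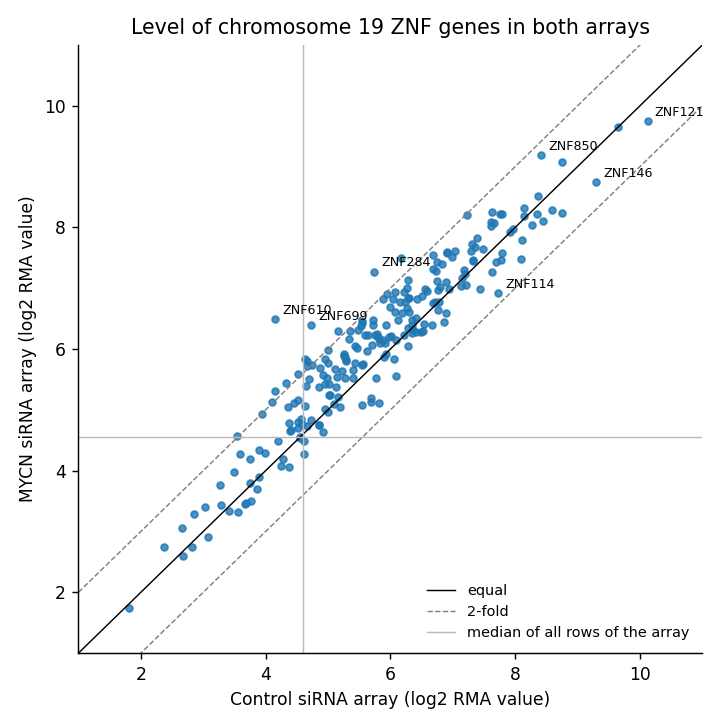
Level of each of the 225 chromosome 19 ZNF genes in the MYCN siRNA array (y axis) and the control siRNA array (x axis), log2 RMA values. Most points lie above the line of equality, and 13 lie on or above the upper 2-fold line while none lies below the lower one.

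The member furthest above the control was ZNF610, a KRAB zinc finger gene. It was at 6.49 in the MYCN siRNA array and 4.16 in the control siRNA array (difference 2.33, 5.04-fold higher). ZNF699 was at 6.39 in the MYCN siRNA array and 4.73 in the control siRNA array (1.67, 3.18-fold). ZNF284 was at 7.27 in the MYCN siRNA array and 5.74 in the control siRNA array (1.53, 2.89-fold). Of the 13, ZNF284 and ZNF585A alone lay more than 1 log2 unit above the median in the control siRNA array. ZNF585A was at 7.50 in the MYCN siRNA array and 6.17 in the control siRNA array (1.33, 2.51-fold). Its neighbour and near-copy ZNF585B was at 5.80 and 4.66 (1.14), so the 2 values may share signal. Of the 13, 6 lay below the control array's median, so their folds are uncertain, and ZNF699, ZNF229, ZNF585B and ZNF223 lay just above it, with the same limit. The 6 are ZNF610, ZNF836 (1.16), ZNF554 (1.11), ZNF599 (1.08), ZNF233 (1.02) and ZNF582 (1.01), the last a gene whose promoter methylation is used as a marker in cervical cancer. ZNF229 (1.20), ZNF611 (1.13) and ZNF223 (1.06) complete the 13.

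Fewer members were lower, and by less. ZNF114 was at 6.92 in the MYCN siRNA array and 7.72 in the control siRNA array (difference −0.80, 1.75-fold lower). ZNF296 was at 5.12 in the MYCN siRNA array and 5.81 in the control siRNA array (−0.69, 1.62-fold lower). ZNF426 was at 7.48 in the MYCN siRNA array and 8.09 in the control siRNA array (−0.61, 1.53-fold lower). These 3 are the members past 1.5-fold in this direction. ZNF296 and ZNF114 lie outside any cluster and far apart, at places 980 and 1070 among the chromosome's 1451 protein-coding genes, with no other member between them. ZNF146, which encodes a protein made almost only of zinc fingers, was at 8.74 in the MYCN siRNA array and 9.30 in the control siRNA array (−0.56). The others of the 12 lowest were ZNF714 (−0.56), ZNF587B (−0.53), ZNF317 (−0.51), ZNF324B (−0.48), ZNF565 (−0.48), ZNF814 (−0.46), ZNF324 (−0.42) and ZNF121 (−0.37).

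Some members have a described role, and they were picked for it after the values were seen. ZNF420 (Apak), a KRAB protein that restrains p53 at pro-apoptotic genes, was at 6.91 in the MYCN siRNA array and 5.95 in the control siRNA array (0.96). ZNF350 (ZBRK1), which represses GADD45A together with BRCA1, was at 6.29 in the MYCN siRNA array and 5.36 in the control siRNA array (0.93). ZNF274, which brings TRIM28 and SETDB1 to the 3′ ends of zinc finger genes, was at 7.43 in the MYCN siRNA array and 6.75 in the control siRNA array (0.69, 1.61-fold higher). All 3 lay clear of the array medians. ZNF224, a repressor of the aldolase A gene, was at 7.51 and 6.98 (0.53), from probe sets that gave 0.81 and 0.24. ZNF91 and ZNF93, known for silencing SVA and LINE-1 elements, had differences of 0.39 and −0.32. ZNF473, which takes part in the processing of histone messenger RNA, had a difference of 0.32, and ZNF536, a repressor of neuronal differentiation, one of 0.12.

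There were 4 members with 2 probe sets each, which shows how far values of 1 gene can lie apart. The probe sets of ZNF57 had differences of −0.29 and 0.27, those of ZNF383 had −0.26 and 0.07, and those of ZNF551 had 0.25 and −0.10. In these 3 the probe sets differed in sign, and in ZNF224 they did not.

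The shift differed by level. Members were sorted by the mean of their 2 values into bands 1 log2 unit wide above the median of all rows, 4.58. A probe set's value also depends on its probes, so the bands describe brightness and not the number of transcripts. A member dim in 1 array can enter a band above 4.58 through the other. In all, 17 members reached the array median in the MYCN siRNA array only, and 2 in the control siRNA array only. The 35 members below 4.58 had a median difference of 0.00, with 17 above 0 (48.6%) and 16 below, against −0.04 and 40.9% above 0 among the other protein-coding genes there. In this band 3 members (8.57%) were at least 1.5-fold higher, against 2.44%, at values not shown to be above background. From 4.58 to 5.58 the 57 members had a median of 0.43 and 22 (38.6%) were at least 1.5-fold higher, against a median of −0.08 and 4.82% among the other protein-coding genes of that band. Among the 22 are ZNF610, ZNF836, ZNF554, ZNF599 and ZNF582, with control values below that array's median, so this share is partly from values not shown to be above background. From 5.58 to 6.58 the 63 members had a median of 0.36 and 20 (31.7%) at least 1.5-fold higher, against 0.04 and 11%. The same median was 0.22 for the 43 members from 6.58 to 7.58, with 9 (20.9%) at least 1.5-fold higher, against 0.07 and 12.1%. The medians of members and other genes lay furthest apart from 4.58 to 5.58 among the bands up to 8.58.

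Brighter members lay nearer to other genes, except in bands of very few genes. The 22 from 7.58 to 8.58 had a median of 0.04, against 0.05 among other protein-coding genes, and 2 of them were at least 1.5-fold higher (9.09%, against 10.6%). Between 8.58 and 9.58 lay 3 members, of which ZNF850 was at 9.19 in the MYCN siRNA array and 8.42 in the control siRNA array (0.77), and ZNF146 was the lowest. The brightest 2 were ZNF358, at 9.64 in the MYCN siRNA array and 9.65 in the control siRNA array (−0.01), and ZNF121, at 9.75 and 10.1 (−0.37). Across the 225 members the rank correlation of difference and mean level was −0.07, a description over genes that share the same 2 arrays.

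**Figure D2:**
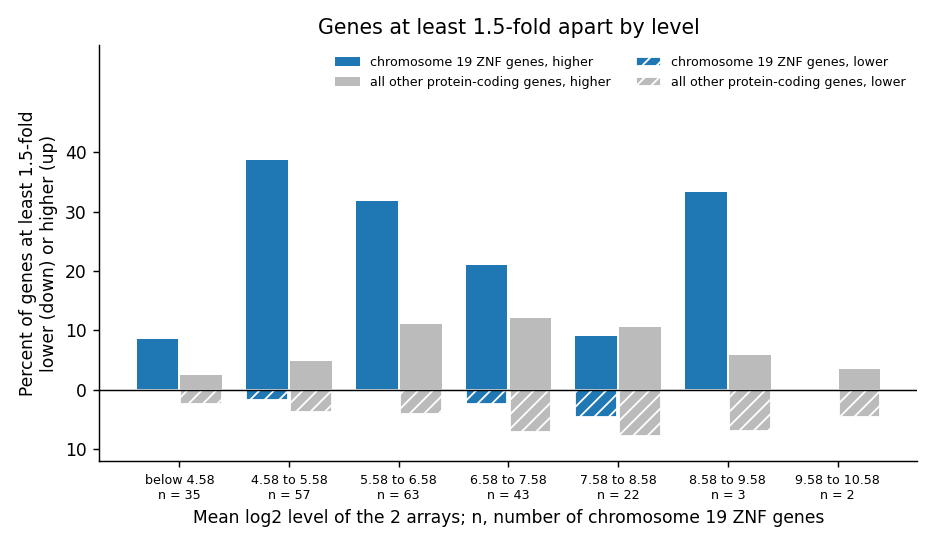
Percent of genes at least 1.5-fold higher (above 0) or lower (hatched, below 0) in each band of mean log2 level, for chromosome 19 ZNF genes and all other protein-coding genes. ZNF genes at least 1.5-fold higher make up a larger share than other genes in each band below 7.58. The 2 brightest bands hold 3 and 2 ZNF genes.

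The differences also varied with position. Clusters were taken from the RefSeq order of 1451 protein-coding genes on the chromosome: runs of at least 5 members with at most 5 other protein-coding genes between neighbours. This gave 11 clusters, numbered in map order, with 204 members, and left 21 outside. The members in clusters had a median of 0.34 and 55 of them were at least 1.5-fold higher, while those outside had a median of 0.12 and 2 such genes, ZNF428 (0.83) and ZNF558 (0.67). The 74 members up to ZNF254, the last before the centromere, had a median of 0.19, and the 151 from ZNF536 on, on the long arm, had a median of 0.39. Neighbouring members were weakly alike (r = 0.29 over 193 pairs pooled from all clusters, with a median gap of 0.35). Differences between cluster medians can add to this r, and pairs of members that are not neighbours were not compared. The mean levels of neighbours were about as alike (r = 0.25), and neighbours share ancestry and, in part, sequence.

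**Figure D3:**
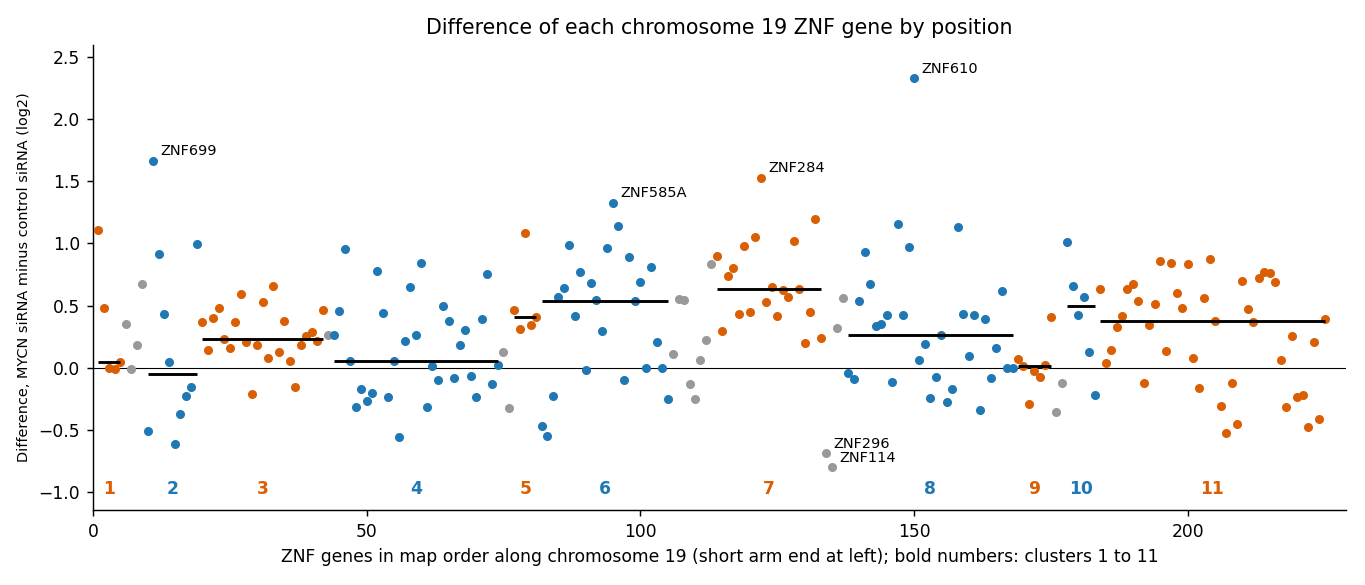
Difference of each of the 225 ZNF genes, in map order along chromosome 19. Points alternate in colour by cluster, grey points lie outside clusters, and black bars are cluster medians, which range from −0.05 in cluster 2 to 0.63 in cluster 7.

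Cluster 7, from ZNF283 to ZNF180 on the long arm, was higher throughout. All 20 measured members were above 0, with a median of 0.63, and 11 were at least 1.5-fold higher (55%, against 7.04% of all genes). Their median level was 5.84 in the MYCN siRNA array and 4.97 in the control siRNA array. The highest was ZNF284, followed by ZNF229, which was at 5.83 in the MYCN siRNA array and 4.63 in the control siRNA array (1.20), the control value being close to the array median. ZNF112 was the lowest, at 6.21 in the MYCN siRNA array and 6.01 in the control siRNA array (0.20). Control values of ZNF222 (2.85), ZNF233 (3.55), ZNF285 (3.90) and ZNF404 (3.99) lay below that array's median, so their differences are uncertain. Those of ZNF155 (4.62), ZNF223 (4.66) and ZNF221 (4.70) lay just above it, with the same limit. In this cluster no other named protein-coding gene of the table lies between the members, so a shift of the region cannot be set against other kinds of genes there.

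Cluster 6, from ZNF565 to ZNF573, was split. Its first 3 members in map order, ZNF565 (−0.48), ZNF146 (−0.56) and ZNF566 (−0.23), were all below 0. Of the 21 that follow, 17 were above 0 and 10 at least 1.5-fold higher, led by ZNF585A and ZNF585B. ZNF382, described as a tumour suppressor, was at 7.32 in the MYCN siRNA array and 6.68 in the control siRNA array (0.64). The median of all 24 was 0.54, and 41.7% of them were at least 1.5-fold higher, against 7.04% of all genes. Cluster 5, a little before it from ZNF302 to ZNF792, had all 5 members above 0, from ZNF181 (0.31) to ZNF599 (1.08), with a median of 0.41.

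The largest cluster, 11, runs from ZNF264 to ZNF446 near the end of the long arm and holds 42 members. Of these, 31 were above 0 and the median was 0.37. At least 1.5-fold higher were 13 (31.0%, against 7.04% of all genes), none by 2-fold (1.68% of all genes). ZNF776 was the highest, at 7.55 in the MYCN siRNA array and 6.68 in the control siRNA array (0.87). A row of 4 neighbours went the other way: ZNF552 (−0.31), ZNF587B (−0.53), ZNF587 (−0.12) and ZNF814 (−0.46), between ZNF586 (0.37) and ZNF417 (0.70). The last 3 of these 4 hold CACGTG in a promoter window, of which those of ZNF587B and ZNF814 are shown above. Next to it, cluster 10 (ZNF582 to ZNF835) had 5 of 6 above 0 and a median of 0.49.

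Cluster 8, from ZNF577 to ZNF331, held ZNF610 and also many genes near 0. Of its 31 members, 20 were above 0 and 7 at least 1.5-fold higher (22.6%, against 7.04% of all genes), with a median of 0.26. ZNF480, beside ZNF610, was at 8.20 in the MYCN siRNA array and 7.22 in the control siRNA array (0.97). ZNF415 was the lowest, at a dim 4.28 in the MYCN siRNA array and 4.62 in the control siRNA array (−0.34). ZNF331, an imprinted gene, was at 5.93 in both.

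On the short arm the shift was smaller. Cluster 3, from ZNF653 to ZNF791, had 21 of 23 members above 0 and a median of 0.23. Only 2 were at least 1.5-fold higher (8.70%, near the 7.04% of all genes). ZNF136 was its highest, at 5.17 in the MYCN siRNA array and 4.52 in the control siRNA array (0.65), and ZNF763 its lowest, at a dim 3.47 and 3.68 (−0.22). Cluster 4, from ZNF101 to ZNF254, had 19 of 31 above 0 and a median of 0.06. It ran from ZNF714, at 5.13 in the MYCN siRNA array and 5.69 in the control siRNA array (−0.56), to ZNF506, at 6.83 and 5.87 (0.96). ZNF675, whose protein binds the signalling adaptor TRAF6, had a difference of 0.75.

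Cluster 2, from ZNF317 to ZNF846, held values far apart. Of its 10 members, 5 were above 0, among them ZNF699 and ZNF559 (0.92), and 4 neighbours, ZNF426, ZNF121, ZNF561 (−0.23) and ZNF562 (−0.16), were below. Its median was −0.05. Cluster 1, from ZNF554 to ZNF77, had a median of 0.05 over 5 members, with ZNF554 (1.11) and ZNF555 (0.48) the highest and the other 3 close to 0. In cluster 9, from ZNF628 to ZNF580 on the long arm, all 7 members lay between −0.29 (ZNF524) and 0.41 (ZNF580), with a median of 0.01.

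Other genes lying between cluster members were few, 21 in the table. The 12 without a symbol of the C2H2 families listed here had a median of −0.07, with 4 above 0 and none past 1.5-fold. Among the 4 was FIZ1 (0.15), itself a zinc finger gene. They also include ECSIT, a mitochondrial assembly factor, at 7.93 in the MYCN siRNA array and 8.34 in the control siRNA array (−0.41). The other 9 carry ZFP, ZSCAN or ZIK symbols, and 7 of them were above 0, with a median of 0.28. ZFP28 was at 6.32 in the MYCN siRNA array and 5.29 in the control siRNA array (1.03), ZFP14 at 6.21 and 5.29 (0.92), and ZIK1 at 7.84 and 7.04 (0.80).

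Over the whole chromosome, 696 protein-coding genes remained besides the members and 13 genes with other C2H2 symbols, which include the 9 above. The 696, FIZ1 among them, had a median difference of −0.06, with 306 above 0 (44.0%) and 6.32% at least 1.5-fold higher. The 13 had a median of 0.17, with 10 above 0 (76.9%) and 3 at least 1.5-fold higher (23.1%, against 7.04% of all genes). The 242 ZNF genes on other chromosomes lay between the 696 and the members. Their median was 0.10, 145 (59.9%) were above 0, and 21 (8.68%) were at least 1.5-fold higher, a share near that of all genes. With genes of mean level under 4.58 left out, the median was 0.35 for 190 chromosome 19 members and 0.11 for 213 ZNF genes elsewhere. Genes dim in the control siRNA array alone can pass this filter. The difference between these groups was not tested, since 1 array per group gives no spread.

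**Figure D4:**
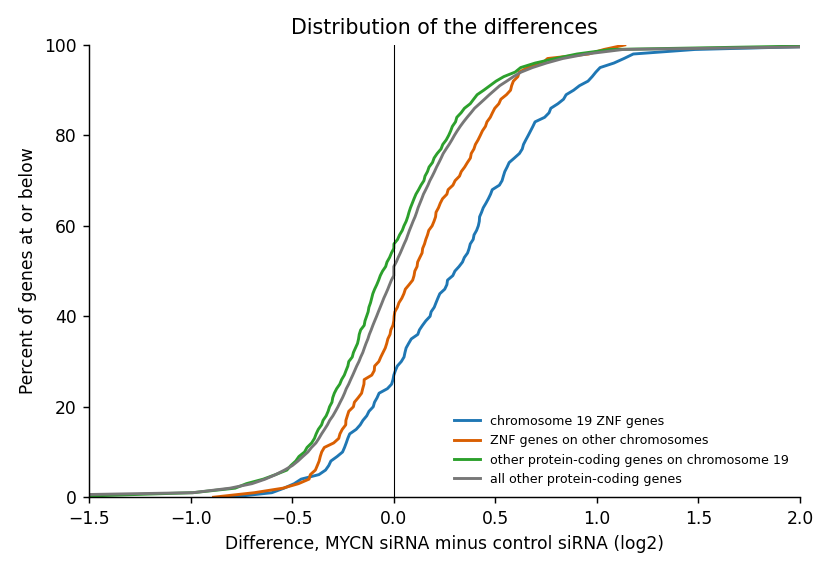
Percent of genes (y axis) with a difference at or below the value on the x axis (log2, MYCN siRNA minus control siRNA) for 4 sets of genes. The curve of chromosome 19 ZNF genes (median 0.30) lies to the right of ZNF genes on other chromosomes (0.10), and that of other protein-coding genes on chromosome 19 (−0.06) to the left.

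The E-box divided the members too. The 11 with CACGTG in a listed window had a median of −0.33, with 8 below 0, 2 above and ZNF331 at 0. None was at least 1.5-fold higher, against 7.04% of all genes, and 11 genes are too few to tell none from that share. The 187 without CACGTG had a median of 0.35, with 143 above 0 and 48 at least 1.5-fold higher. Among all 225 members, 25.3% were at least 1.5-fold higher. The lowest of the 11 were ZNF296 (−0.69), ZNF587B (−0.53), ZNF565 (−0.48), ZNF814 (−0.46), ZNF324 (−0.42) and ZNF507 (−0.33), and the highest was ZNF460, at 8.51 in the MYCN siRNA array and 8.37 in the control siRNA array (0.14). The differences of ZNF587 and ZNF577 were −0.12 and −0.04. The copies in these 6 lowest genes began 30, 50, 175, 45, 90 and 1 bases before the start site in the same order, counting the first copy of the ZNF565 stretch shown. Windows of the related ZNF587B, ZNF587 and ZNF814 are not independent.

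Among all other protein-coding genes with windows, the split was small. The 1086 with CACGTG had a median of −0.03, with 585 below 0 and 53 at least 1.5-fold higher. The 8420 without CACGTG had a median of 0.00, with 4025 below 0 and 613 at least 1.5-fold higher. Of all genes, 7.04% were at least 1.5-fold higher. In ZNF genes on other chromosomes the medians were −0.04 for 14 genes with it and 0.13 for 183 without. CACGTG was less common in the members' windows (5.56% of genes) than in those of other protein-coding genes (11.4%), and 7.26% of all 35116 windows held it. With members under the 70th percentile of level left out, the 7 that remain with an E-box had a median of −0.04, against 0.33 for 101 without. A match is a description of letters and shows no binding, and its part in the differences was not tested.

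**Figure D5:**
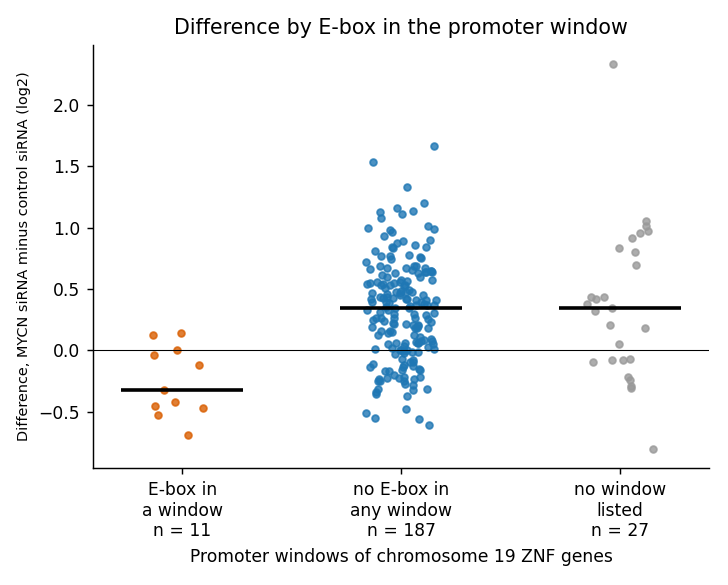
Difference of each chromosome 19 ZNF gene (log2, MYCN siRNA minus control siRNA) by whether a listed promoter window holds the E-box. Bars are medians, −0.33 for the 11 genes with it and 0.35 for the 187 without, and 27 genes had no window listed.

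The ETS core CCGGAA, read on both strands, was common among the members, in 115 of 198 (58.1%), against 27.8% of the other protein-coding genes and 17.2% of all windows. Members with it had a median of 0.37 and those without a median of 0.20. The GC box GGGCGG was in 138 (69.7%, against 68.9% of other protein-coding genes and 45.0% of all windows), and there the order was the other way, 0.22 with it and 0.47 without. Medians for the other motifs, of 9 searched on both strands, follow, several of them from few genes. The variant E-box CACGCG was in 33 members, with medians of 0.35 with it and 0.29 without. CATGTG was in 16, with 0.03 against 0.32. The cyclic AMP response element TGACGTCA was in 8, with −0.01 against 0.30. CCAAT was in 111, with 0.23 against 0.35. The NRF1 motif was in 8, with 0.39 against 0.29, and the ZNF143 motif was in 3, with −0.48 against 0.30, the lowest median of the 9 but from 3 genes, ZNF565 among them. By gene, CACGCG was in 16.7% of members with windows, against 19.8% of other protein-coding genes. The same shares were 8.08% and 10.6% for CATGTG, 4.04% and 3.11% for TGACGTCA, and 56.1% and 41.9% for CCAAT. They were 4.04% and 2.18% for the NRF1 motif, and 1.52% and 0.452% for the ZNF143 motif. Windows are another unit, since a gene can have several. Of all windows, 11.4% held CACGCG, 11.1% held CATGTG, 1.85% held TGACGTCA and 34.6% held CCAAT. The NRF1 motif was in 1.24% of windows and the ZNF143 motif in 0.231%, and no motif is contained in another.

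The machinery through which KRAB zinc finger proteins act was mostly near 0. Of 31 listed genes, 27 were in the table, with a median of −0.07, 12 above 0 and 15 below. TRIM28 was at 9.30 in the MYCN siRNA array and 9.63 in the control siRNA array (−0.33), and SETDB1 was not analysed here. The lowest was SUV39H2, a histone H3 lysine 9 methyltransferase, at 7.68 in the MYCN siRNA array and 8.87 in the control siRNA array (−1.18, 2.27-fold lower). UHRF1, which brings DNA methylation to newly made DNA, was at 8.64 and 9.63 (−0.99), and the heterochromatin protein CBX3 was at 7.84 and 8.18 (−0.35). The highest were CHD3, a NuRD remodeller that binds TRIM28, at 9.48 in the MYCN siRNA array and 8.86 in the control siRNA array (0.61), the DNA methyltransferase DNMT3A (0.50) and the remodeller ATRX (0.37).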

How the data were processed

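RNA of 1 culture per treatment was hybridised to 1 array each. The deposited values are log2 values per probe set that the authors made with RMA, per the submitters' processing notes; the sources used here give neither its settings nor its version. Probe sets were named through the platform annotation and placed by RefSeq (GRCh38.p14) through gene identifiers. Where several probe sets read 1 gene, their mean was taken, giving 14812 genes, and the difference was taken as MYCN siRNA minus control siRNA, with no low-value filter. With 1 array per group there was no test, and precision is limited by having so few arrays. The members, lists, motifs and groupings were chosen with earlier results of these data known. The text names the 12 highest and 12 lowest members, the extremes of each cluster and of the brightest band, and the 3 highest and 3 lowest genes of the silencing machinery with TRIM28; members named for a known role, a motif or a place were added after values were seen. Alternatives were median centring, quantile and lowess normalization, the brightest probe set, 2 filters, an offset of 16, a 1.5-fold threshold and other cluster rules. Python 3.11.15, pandas 2.3.3 and statsmodels 0.14.6 were used, and the scripts were tested on simulated data.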

Additional observations from a re-analysis of the deposited data

How the results depend on the processing

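No paired analysis was possible because there is 1 array per group. A median counted as moved when it changed by 0.1 or more, a count when it changed by more than 1.5 times, and a single gene when it changed by the probe set SD of 0.32 or more. The median of the 225 members stayed above 0 under every alternative run, from 0.19 to 0.35. With 16 added to linear values it was 0.19, 4 members were at least 2-fold higher, clusters 6, 7, 8 and 10 had medians of 0.40, 0.49, 0.14 and 0.33, and the band from 4.58 to 5.58 had one of 0.30. With genes under the median level left out, clusters 1, 2 and 4 had medians of 0.48, −0.16 and 0.18. With the filter at the 70th percentile, 2 members were at least 2-fold higher, clusters 1, 2, 6 and 10 had medians of 0.26, −0.19, 0.64 and 0.12, and the E-box members had one of −0.041. At 1.5-fold the counts were 57 higher and 3 lower. With at most 2 other genes between neighbours the clusters holding most of clusters 2 and 11 had medians of 0.048 and 0.47, and with at most 10 those holding clusters 2 and 10 had 0.11 and 0.37. The sign of cluster 2 therefore depends on where it is taken to begin. The other 154 recomputed counts and medians did not move, median centring, quantile, lowess and the brightest probe set among them, and for the 44 genes named by the rule and 57 more named in the text, 642 recomputed differences moved by less than that SD and 11 by more, all 11 under the offset and with the same sign. ZNF57, averaged from probe sets of opposite sign, had −0.29 from its brightest one alone. Median centring put the median of all genes at 0.05. The E-box alternatives and those for the 57 genes were chosen after seeing the data. Precision is limited by 1 array per group for every value, and for dim genes also by background: 29 members lay below the array medians in both arrays and 17 more in the control siRNA array only.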
